A study of Mus musculus with 7 samples.

Results

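The nuclear receptor Ppara, its partner Rxra, the coactivator Ppargc1a, the liver transcription factor Creb3l3 and 4 genes that are read as sentinels of PPARα activity in fasting, Vnn1, Vnn3, Fgf21 and Pdk4, were examined in the livers of WT and TET1 KO mice. These 8 genes, of 51426 in the tables, were chosen by name with the fold changes between TET1 KO and WT of these same livers already known. Their differences between the genotypes are therefore described here without a test. The question was whether the levels of the receptor and its coactivators followed those of the targets.

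Liver RNA from 3 WT and 4 TET1 KO male mice was sequenced, 1 library per liver. All mice had eaten a high fat diet (HFD) for 16 weeks from the age of 8 weeks, and no liver on normal chow was analysed here. The labels give C57BL/6J for both groups, while the methods give the mixed stock B6;129S4-Tet1tm1.1Jae/J as the source of the whole-body deletion, so every cell type of the KO mice carried it. Per the methods, serum was drawn from unfasted mice when the diet ended. The hour at which the livers were taken, and whether they came from the same unfasted mice, are not given in the sources used here.

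PPARα is a fatty acid sensor of the hepatocyte. It binds DNA as a heterodimer with RXRα at repeats of the AGGTCA element, and in fasting it turns on fatty acid oxidation and ketogenesis with the help of coactivators such as the product of Ppargc1a. CREB3L3 is a membrane-bound factor that is released by proteolysis in fasting and acts together with PPARα on Fgf21.

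Libraries held between 15005277 and 22746138 counts, and values are given as CPM, the counts of a gene scaled to library size after TMM normalization, where 1 CPM equalled between 14.2 and 24.1 counts. Counts of Tet1, the targeted gene, were 1, 4 and 1 for WT replicates 1 to 3 against 2, 1, 4 and 1 for TET1 KO replicates 1 to 4. These counts lay near the floor in both genotypes and could not check the labels. Of the 14754 genes that passed the filter on low counts, 169 (1.15%) were called lower and 129 (0.874%) higher in TET1 KO by edgeR's quasi-likelihood test at a Benjamini-Hochberg adjusted p under 0.05. An unadjusted p under 0.05 was reached by 3875 genes (26.3%), so this share is the background for such counts in the lists. DESeq2 called 4.82% of its tested genes lower and 4.65% higher. The shares of each method are the background for its counts of called genes in the lists. When libraries were scaled by size only, 312 were lower and 107 higher, and the median log2 fold change moved by -0.09. Hepatocyte markers summed to between 58990 and 80840 CPM, and the groups overlapped. TET1 KO replicate 2 carried adipocyte RNA, with Adipoq at 4.23 CPM and Plin1 at 4.93 CPM. Both genes were at or below 0.373 CPM in each of the other 6 livers. WT replicate 2 was next, at 0.373 CPM for Adipoq and 0.166 CPM for Plin1. A further adipocyte marker, Lep, was higher in WT replicate 2 (0.705 CPM) than in TET1 KO replicate 2 (0.423 CPM).

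All 8 genes passed the filter. In TMM-normalized CPM the genotypes did not overlap for 5 of them. For Vnn1, Vnn3 and Fgf21 the 4 TET1 KO livers were all lower than the 3 WT livers, 3 of 8 genes where 10.8% of all tested genes did so. For Ppargc1a and Creb3l3 they were all higher, 2 of 8 genes where 11.7% of all tested genes did so. These separations of Ppargc1a and Creb3l3 depended on TMM, since the groups of both genes overlapped when scaled by library size alone. Since these genes were chosen with that contrast known, nothing is read from these counts. Ppara, Rxra and Pdk4 overlapped between the genotypes.

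**Figure D1:**
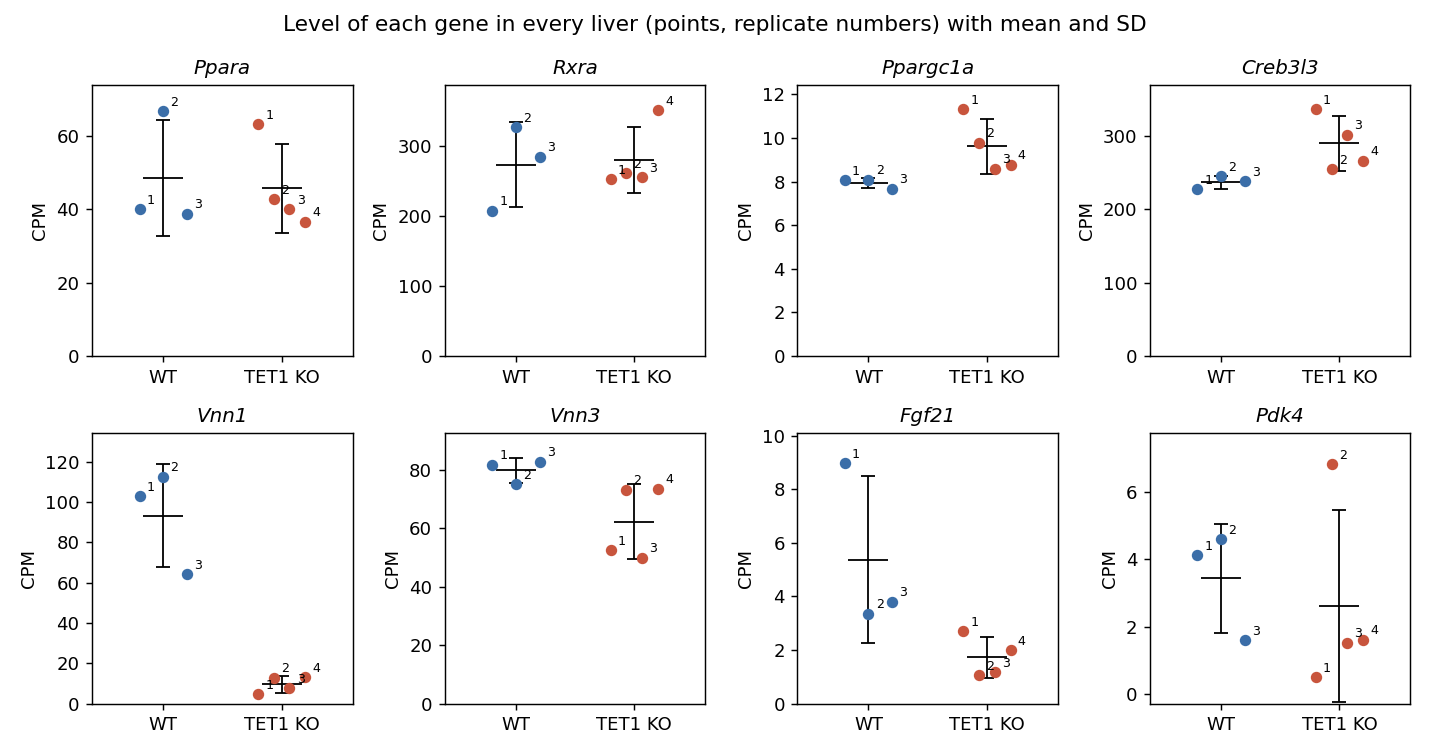
Level of each of the 8 genes in CPM (vertical axis, from 0 or below where the SD reaches below 0) in the 3 WT and 4 TET1 KO livers. Points are livers with their replicate numbers, and black bars show mean and SD. The Vnn1 groups are far apart, the Vnn3, Fgf21, Ppargc1a and Creb3l3 groups are separate but close, and the Ppara, Rxra and Pdk4 groups overlap.

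Ppara (ENSMUSG00000022383, chr15:85734910-85806851, GRCm38, plus strand) encodes the receptor. It was at 40.0, 66.7 and 38.7 CPM in WT replicates 1 to 3 and at 63.2, 42.8, 40.0 and 36.6 CPM in TET1 KO replicates 1 to 4. WT replicate 2 and TET1 KO replicate 1 stood above the other 5 livers, so that each genotype held 1 liver with a high level. Mean levels were 48.5 ± 15.8 CPM (SD, n = 3) in WT and 45.6 ± 12.0 CPM (SD, n = 4) in TET1 KO. The log2 fold change was -0.09 with an SE of 0.23, and its sign depended on single livers. It became 0.21 without WT replicate 2 and -0.29 without TET1 KO replicate 1.

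Rxra (ENSMUSG00000015846, chr2:27676445-27763319, GRCm38, plus strand), the obligate partner of PPARα and of several other nuclear receptors, was at 207, 326 and 284 CPM in WT and at 252, 261, 255 and 351 CPM in TET1 KO. The lowest liver was a WT liver, and the highest was TET1 KO replicate 4. The log2 fold change was 0.04 with an SE of 0.19. It was -0.14 without WT replicate 1 and 0.18 without WT replicate 2, so no direction can be given for Rxra.

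Ppargc1a (ENSMUSG00000029167, chr5:51454249-52115853, GRCm38, minus strand) encodes PGC-1α, a coactivator of PPARα that fasting induces in liver. It was at 8.07, 8.08 and 7.67 CPM in the WT livers, which lay close together. The TET1 KO livers had 11.3, 9.79, 8.59 and 8.77 CPM. All 4 were above the WT range after TMM normalization, and replicate 1 was the highest. Scaled by library size alone, WT replicate 2 (195 of 22746138 counts) lay above TET1 KO replicate 3 (168 of 20635343 counts). In TMM-normalized CPM the mean was 121% of the WT mean, and the log2 fold change was 0.27 with an SE of 0.16.

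Creb3l3 (ENSMUSG00000035041, chr10:81084329-81098872, GRCm38, minus strand) had a like pattern. It was at 228, 245 and 238 CPM in WT and at 336, 255, 302 and 266 CPM in TET1 KO. TET1 KO replicate 1 was again the highest, and the lowest TET1 KO liver was just above the highest WT liver. Scaled by library size alone, WT replicate 2 (5907 of 22746138 counts) lay above TET1 KO replicate 2 (3613 of 15005277 counts). In TMM-normalized CPM the mean was 122% of the WT mean, with a log2 fold change of 0.29 and an SE of 0.14. Among all pairs of the 8 genes, Ppargc1a and Creb3l3 had the most similar profile over the 7 livers. The root mean square (RMS) difference of their gene-centred log2 CPM was 0.12. The RMS sizes of their own profiles, 0.18 and 0.19, were the smallest of the 8 genes.

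Vnn1 (ENSMUSG00000037440, chr10:23894688-23905344, GRCm38) encodes vanin-1, a pantetheinase that releases cysteamine and pantothenate, the vitamin from which coenzyme A is made. It was at 103, 113 and 64.1 CPM in the WT livers and at 4.57, 13.0, 7.67 and 13.1 CPM in the TET1 KO livers. The highest TET1 KO liver lay far below the lowest WT liver. The TET1 KO mean was 10.3% of the WT mean, and the log2 fold change was -3.28 with an SE of 0.33. Over the 14 alternative settings it stayed between -3.53 and -3.05. In bulk tissue, fewer cells of a type and less RNA per cell cannot be told apart.

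Vnn3 (ENSMUSG00000020010, chr10:23851462-23869843, GRCm38, plus strand) encodes a second vanin and lies 24.8 kb from Vnn1. It was at 81.7, 74.9 and 82.7 CPM in WT and at 52.5, 73.1, 49.9 and 73.5 CPM in TET1 KO. TET1 KO replicates 2 and 4 came close to the lowest WT liver, while replicates 1 and 3 were lower. The mean was 78.0% of the WT mean, with a log2 fold change of -0.36 and an SE of 0.16. Within TET1 KO the vanins shared an order in part, since replicates 1 and 3 were also the lowest for Vnn1. Reads shared between the vanin genes could not be traced, because the settings of the counting are not given.

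Fgf21 (ENSMUSG00000030827, chr7:45613890-45615490, GRCm38, minus strand) encodes a fasting hormone of the liver. It was at 8.96, 3.36 and 3.81 CPM in WT and at 2.69, 1.06, 1.18 and 1.99 CPM in TET1 KO. WT replicate 1 stood apart from the other WT livers, and the gap between WT replicate 2 and TET1 KO replicate 1 was small. Their exact 95% Poisson intervals, which cover counting error only, were 2.67 to 4.17 CPM and 1.95 to 3.63 CPM and overlapped. The log2 fold change was -1.63 with an SE of 0.40. Without WT replicate 1 it was -1.05, so this liver carried part of the difference.

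Pdk4 (ENSMUSG00000019577, chr6:5483351-5496278, GRCm38, minus strand) encodes a kinase that shuts down pyruvate dehydrogenase in fasting. It was at 4.13, 4.60 and 1.60 CPM in WT and at 0.501, 6.83, 1.53 and 1.62 CPM in TET1 KO. The TET1 KO livers thus held both the lowest and the highest value, which differed 13.6-fold. TET1 KO replicate 1 had 8 counts, with an interval of 0.216 to 0.987 CPM. The highest value came from TET1 KO replicate 2, the liver with the highest sum of adipocyte markers. The part of adipocyte RNA in its Pdk4 level was not tested. The log2 fold change of -0.45 had an SE of 0.64 and became -1.49 without this liver. It was -0.11 without TET1 KO replicate 1, -0.81 without WT replicate 3 and -0.19 without WT replicate 2.

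Levels within single livers showed no common order of receptor and targets. WT replicate 2 had the most Ppara of the WT livers and also the most Vnn1 and Pdk4, but the least Fgf21. TET1 KO replicate 1 had the most Ppara, Ppargc1a and Creb3l3 of its group and also the most Fgf21, yet the least Vnn1 and Pdk4. WT replicates 1 and 3 and TET1 KO replicates 2, 3 and 4 had nearly the same Ppara level, between 36.6 and 42.8 CPM. At that level Vnn1 ranged from 7.67 CPM in TET1 KO replicate 3 to 103 CPM in WT replicate 1. No correlation is given, since the livers fall into the genotypes and neither holds 6 livers.

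**Figure D2:**
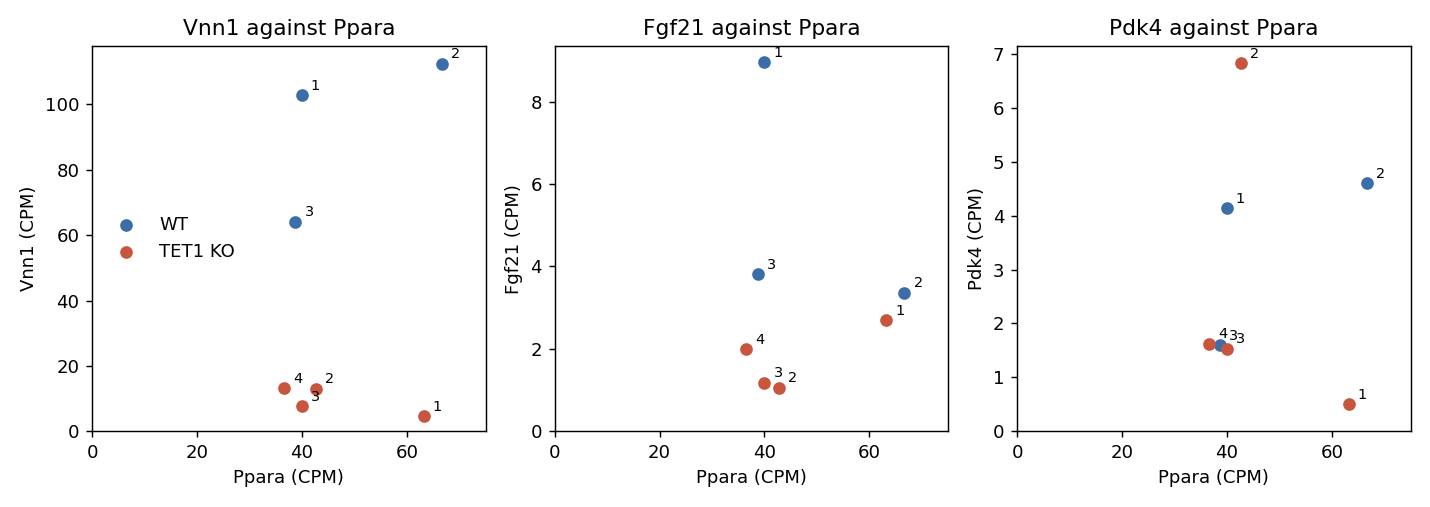
Vnn1, Fgf21 and Pdk4 (vertical axes, CPM) against Ppara (horizontal axis, CPM) in the 7 livers, numbered by replicate. At Ppara levels between 36.6 and 42.8 CPM the WT and TET1 KO livers separate for Vnn1 and Fgf21 but not for Pdk4.

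The spread between livers of the same genotype also set the genes apart. The pooled SD of log2 CPM within the genotypes was 0.14 for Ppargc1a and 0.15 for Creb3l3, higher than in 13.8% and 14.4% of all tested genes. Rxra had an SD of 0.28, Vnn3 of 0.24 and Ppara of 0.39. Vnn1 (0.62), Fgf21 (0.67) and Pdk4 (1.23) varied more, and Pdk4 exceeded 99.4% of all tested genes. Pdk4 and Fgf21 were also the lowest of the 8 genes in CPM, with as few as 8 and 15 counts in a liver. Among the 1416 genes within 0.5 log2 units of its level, Pdk4 still exceeded 99.2%. Compared in the same way at their own levels, Vnn1 exceeded 98.8%, Fgf21 92.7% and Ppara 92.1%. Vnn3 exceeded 68.4% and Rxra 66.6%, so at matched level Ppara ranked near Fgf21.

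Levels of different genes were compared per length of exons, taken from GENCODE M1, which may not be the annotation used for counting. In WT, Creb3l3 was the highest at 78.5 ± 2.90 CPM per kb (SD, n = 3). Rxra at 49.9 ± 11.1, Vnn3 at 44.1 ± 2.34 and Vnn1 at 38.6 ± 10.6 CPM per kb followed, and the livers of these neighbours in the order overlapped. Ppara was at 12.6 ± 4.12 and Fgf21 at 5.78 ± 3.35 CPM per kb, both apart from their neighbours. Ppargc1a at 1.20 ± 0.0353 and Pdk4 at 0.981 ± 0.460 CPM per kb overlapped. In TET1 KO, Vnn1 stood at 3.97 ± 1.74 CPM per kb (SD, n = 4), now below Ppara at 11.9 ± 3.13, while Vnn3 remained at 34.4 ± 7.08. The order of the group means of the other genes was the same in both genotypes. In TET1 KO, however, Fgf21 at 1.86 ± 0.823 and Ppargc1a at 1.45 ± 0.189 CPM per kb overlapped, so their order there is not settled.

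Promoters from RefSeq (GRCm38.p6) were read for 7 of the 8 genes, with 9 start sites. Vnn1 had no entry. The 250 bases before each start were searched on both strands for AGGTCA, for a pair of AGGTCA elements separated by 1 base (DR1, the form that PPARα and RXRα bind, with mismatches counted over its 12 fixed bases), and for TGACG, the core of the cyclic AMP response element. A DR1 match contains AGGTCA-like bases, so these motifs can overlap. The sequences of the receptor gene, of Creb3l3 and of the lower targets Vnn3 and Fgf21 are shown. The text sets the receptor beside these genes, whose groups did not overlap in TMM-normalized CPM. Capitals mark the matches described after them.
Ppara (chr15:85735526-85735775, plus strand): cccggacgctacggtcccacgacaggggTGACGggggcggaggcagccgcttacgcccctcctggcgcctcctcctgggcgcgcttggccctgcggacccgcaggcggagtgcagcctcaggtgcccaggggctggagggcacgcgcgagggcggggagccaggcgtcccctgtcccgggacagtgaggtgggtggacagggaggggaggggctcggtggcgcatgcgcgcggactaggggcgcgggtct
Creb3l3 (chr10:81092592-81092841, minus strand): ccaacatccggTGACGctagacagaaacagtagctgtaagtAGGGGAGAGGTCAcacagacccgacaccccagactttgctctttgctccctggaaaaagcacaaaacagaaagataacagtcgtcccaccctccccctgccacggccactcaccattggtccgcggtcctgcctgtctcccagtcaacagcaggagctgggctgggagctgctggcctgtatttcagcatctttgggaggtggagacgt
Vnn3 (chr10:23851212-23851461, plus strand): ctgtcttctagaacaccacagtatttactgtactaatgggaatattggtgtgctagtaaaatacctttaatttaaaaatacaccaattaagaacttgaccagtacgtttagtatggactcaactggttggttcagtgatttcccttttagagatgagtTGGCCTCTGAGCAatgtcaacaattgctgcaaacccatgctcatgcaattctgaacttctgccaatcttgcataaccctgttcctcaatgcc
Fgf21 (chr7:45615491-45615740, minus strand): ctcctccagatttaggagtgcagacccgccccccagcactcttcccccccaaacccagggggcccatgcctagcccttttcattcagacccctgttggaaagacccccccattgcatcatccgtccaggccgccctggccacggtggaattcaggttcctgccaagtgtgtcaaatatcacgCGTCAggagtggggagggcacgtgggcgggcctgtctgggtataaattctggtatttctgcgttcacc

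The Creb3l3 start shown had a DR1 match with 2 mismatches on its own strand, from 209 to 197 bases before the start, which included an exact AGGTCA. A match this close was in 3.24% of all 32851 promoters of the same length, and the second start of Rxra also had one. The other Creb3l3 start had none. Vnn3 had a match with 3 mismatches on the opposite strand, which 21.3% of all promoters equalled or bettered. The promoters of Fgf21, Ppara, Ppargc1a and Pdk4 held no match within 3 mismatches. TGACG was found in Ppara, Ppargc1a, Fgf21 and the Creb3l3 start shown, and in 17.8% of all promoters. AGGTCA without mismatch was in 14.0% of all promoters. TET1 oxidizes methylated cytosine, which lies mostly in CpG sites, and the number of these sites also differed. The Ppara promoter held 27 and the first Rxra start 40, against a median of 6 over all promoters. The second Rxra start, which had the DR1 match, held 1, and the Creb3l3 starts held 8 and 4. Vnn3 held 1, Pdk4 6, Fgf21 9 and Ppargc1a 5. These are descriptions of the letters in these windows, and no methylation was measured in these libraries.

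The other coregulators were examined with a list of 23 genes. Only Pparg was called in edgeR's quasi-likelihood test, where 1.15% of all tested genes were called lower and 0.874% higher. It is the PPAR isoform of adipocytes, which steatotic liver also expresses, and it was lower in TET1 KO, with 13.5 ± 4.77 CPM (SD, n = 3) in WT and 4.38 ± 1.49 CPM (SD, n = 4) in TET1 KO. Its log2 fold change was -1.63 with an SE of 0.31 and an adjusted p of 0.0265 (edgeR). The call was lost without WT replicate 1, WT replicate 2 or TET1 KO replicate 3, and 3 genes were called without TET1 KO replicate 4. DESeq2 called 1 gene lower and 2 higher, the coactivators Ppargc1b and Crebbp. These were picked out after their values were seen, and edgeR did not call them. Ppargc1b, a relative of Ppargc1a, was at 0.93 (SE 0.30), with 1 TET1 KO liver inside the WT range, and Crebbp, an acetyltransferase, was at 0.64 (SE 0.20), with every TET1 KO liver higher. The median log2 fold change of the list was 0.17, beside 0.01 for all tested genes. Of the 10 tested genes among the other partners of RXR, 0 were called by edgeR and 2 by DESeq2, and 3 had an unadjusted p under 0.05. Rara (log2 fold change 0.60, SE 0.17) and Nr1i3 (0.56, SE 0.19) had the smallest p.

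Beyond the sentinels, 52 further PPARα targets were tested. Of these, 5 were called lower and 2 higher, beside 1.15% and 0.874% of all tested genes. A log2 fold change below 0 was found for 39 of the 52, and for 48.9% of all tested genes. The median was -0.32, beside 0.01 for all tested genes. The count of lower genes was 2 without WT replicate 1 or 2 or without TET1 KO replicate 1, 2 or 3, and it was 9 without WT replicate 3 and 8 without TET1 KO replicate 4. DESeq2 called 14 lower and 4 higher, beside 4.82% and 4.65% of its tested genes.

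Cd36, a fatty acid transporter, fell, with 155.5 ± 46.6 CPM (SD, n = 3) in WT, 19.9 ± 8.57 CPM (SD, n = 4) in TET1 KO and a log2 fold change of -2.97 with an SE of 0.34 (edgeR adjusted p = 0.00346). The lipid droplet coats Plin4 and Plin2 fell, with log2 fold changes of -1.59 (SE 0.20) and -1.01 (SE 0.21). The thioesterase Acot3 and the omega-hydroxylase Cyp4a14 fell by 2.78 and 2.15 on the log2 scale, although the livers of the genotypes overlapped for Acot3. Cyp4a12a, an omega-hydroxylase of male liver, rose instead, with a log2 fold change of 1.67 (SE 0.29), as did the transporter Slc27a1, with 0.75 (SE 0.15). Cd36 and Plin4 were called under each of the 14 alternatives and Cyp4a12a under 13 of them, while Acot3 and Cyp4a14 were called under 8, Plin2 under 9 and Slc27a1 under 7. Genes of the Cyp4a and Acot families are close copies, and reads shared among them are uncertain. Pparg was also lower in TET1 KO, and whether PPARα, PPARγ or another regulator set the levels of these genes was not tested.

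The oxidation genes themselves did not pass. Of 12 peroxisomal genes edgeR called 0, with 6 at an unadjusted p under 0.05 (26.3% of all tested genes), and DESeq2 called 3 lower. Crot (log2 fold change -0.90, SE 0.24) and Hsd17b4 (-0.71, SE 0.19) had the smallest p. Of 15 genes of mitochondrial oxidation and ketogenesis edgeR called 0, with 4 at an unadjusted p under 0.05, close to the 26.3% of all tested genes, and DESeq2 called 2 lower and 1 higher. In this list Etfdh was at -1.17 (SE 0.32) and Cpt1b at 1.21 (SE 0.29). The peroxisomal median of -0.43 and the mitochondrial median of -0.25 both lay below that of all tested genes.

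**Figure D3:**
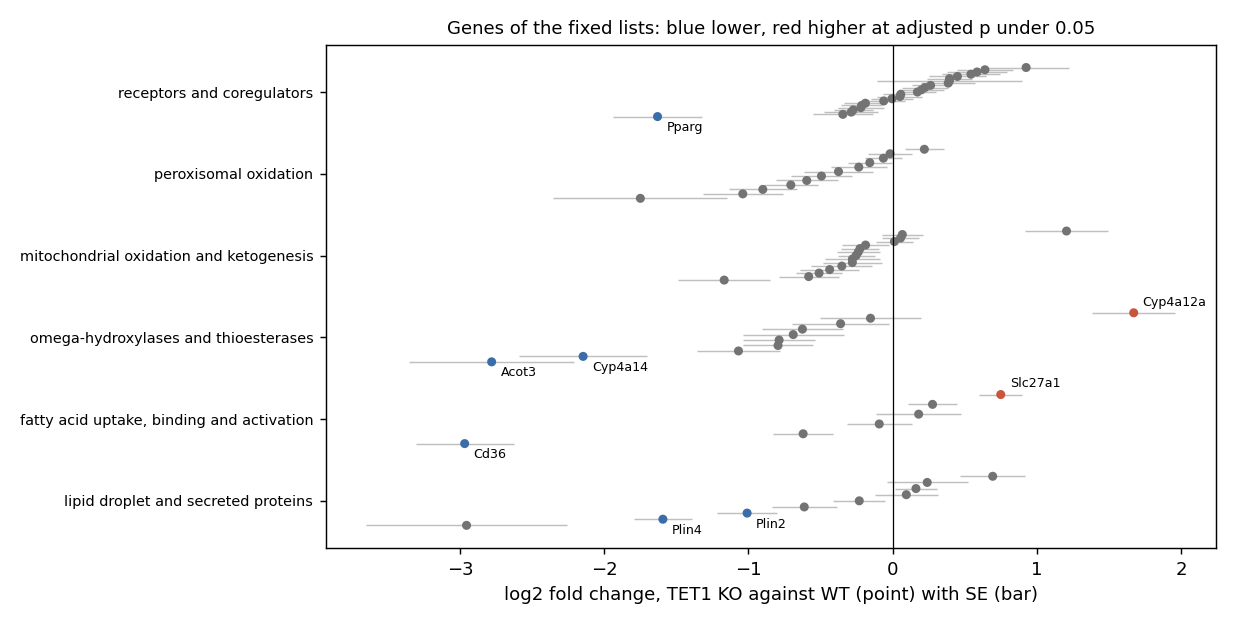
Log2 fold change of TET1 KO against WT (horizontal axis) for each gene of the receptor and coregulator list and of the 5 lists of further PPARα targets, with bars for the SE. Pparg, Acot3, Cyp4a14, Cd36, Plin4 and Plin2 are called lower, Cyp4a12a and Slc27a1 higher, and the oxidation lists hold no called gene.

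Genes around each sentinel were read from further lists. Of the processing enzymes, relatives and targets of CREB3L3, edgeR called 1 of 12 tested genes, beside 1.15% of all tested genes called lower and 0.874% higher. Apoa4, an apolipoprotein and CREB3L3 target, was lower at a log2 fold change of -1.79 (SE 0.31), a call that was lost without WT replicate 2 or TET1 KO replicate 2 or 3. Apoa1, a further target of CREB3L3 that was picked out after its values were seen, went the other way at 1.10 (SE 0.32), with every TET1 KO liver higher. edgeR did not call it, and DESeq2 called 1 gene of the list in each direction. Of the FGF21 receptors, coreceptor and protease, 1 of 6 was called, Fgfr1, at 1.09 (SE 0.23), beside 0.874% of all tested genes called higher. This call held in 3 of the 7 fits that left out 1 liver and was lost without WT replicate 1 or 2 or TET1 KO replicate 2 or 3. The coreceptor Klb, also picked out after its values were seen, was at -0.91 (SE 0.23), with every TET1 KO liver lower. edgeR did not call it, and DESeq2 called 1 gene of the list in each direction. Of 10 genes of the integrated stress response, which also drives Fgf21, edgeR called 0, with 2 at an unadjusted p under 0.05, and DESeq2 called 2 lower. Eif2ak3 and Atf5 had log2 fold changes of -0.70 (SE 0.22) and -0.66 (SE 0.21).

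Of 13 genes of coenzyme A and pantothenate metabolism, the pathway of the vanins, edgeR and DESeq2 called 0, and 2 had an unadjusted p under 0.05, a smaller share than the 26.3% of all tested genes. These were Slc25a42 at 0.48 (SE 0.16) and Ppcdc at 0.42 (SE 0.17). Of 12 genes of the pyruvate dehydrogenase complex and its control, edgeR called 0, with 4 at an unadjusted p under 0.05, and DESeq2 called 4 lower. Dlat and Pdha1, subunits of the complex that PDK4 inhibits, were at -0.72 (SE 0.20) and -0.54 (SE 0.15).

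Fasting and feeding signals were read beside the sentinels, since the feeding state of the livers is not stated. Of 18 genes of the fasting hormone response, edgeR called 1 higher, beside 0.874% of all tested genes, and 0 lower. The called gene was Irs2, the insulin receptor substrate that fasting raises, at 1.00 (SE 0.22). DESeq2 called 4 higher and 1 lower. The Irs2 call held without TET1 KO replicate 2 or 4 and was lost without any of the other 5 livers. Fbp1, a gluconeogenic enzyme picked out after its values were seen, went the other way at -1.27 (SE 0.32), with every TET1 KO liver lower, and edgeR did not call it. In the whole list 8 genes had an unadjusted p under 0.05, beside 26.3% of all tested genes. Of 8 genes of fed-state lipogenesis and glycolysis edgeR called 0, with 2 at an unadjusted p under 0.05, and DESeq2 called 1 higher. Mlxipl, a glucose-responsive transcription factor, was at 0.90 (SE 0.26). Of 18 clock genes 4 were called higher by edgeR, beside 0.874% of all tested genes. They were Per3, Dbp, Tef and Bhlhe41, with log2 fold changes of 1.12, 0.91, 0.79 and 1.58. DESeq2 called 7 higher and 0 lower, beside 4.65% and 4.82% of its tested genes. All 4 calls were lost without WT replicate 2. Of the 7 fits that left out 1 liver, Per3 was called in 6, Tef in 3, Dbp in 2 and Bhlhe41 in 1, and each of the 4 was called without TET1 KO replicate 4. Their part in the levels of the 8 genes was not tested.

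Within 500 kb of Vnn1, 3 other tested genes were found besides Vnn3. Rps12 (log2 fold change 0.50, SE 0.21), Slc18b1 (-0.16, SE 0.22) and Stx7 (-0.09, SE 0.17) overlapped between the genotypes and were not called by edgeR. The 16 Taar entries next to Vnn1 did not pass the filter. Tet1 lies on the same chromosome, 38.9 Mb from Vnn1 and 18.2 Mb from Creb3l3. Since the deletion came from a mixed stock, the allele at Tet1 and linked 129 sequence cannot be told apart for these genes.

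Profiles most like those of the 8 genes were sought among all other tested genes by the RMS difference of gene-centred log2 CPM over the 7 livers. The 8 genes themselves were left out of the search. For Vnn1 these were Cd36 (0.21), Mogat1 (0.29) and A4gnt (0.37), where the RMS size of the Vnn1 profile itself was 1.74. For Vnn3 they were Cenpq, Cdh5 and Trmt12, between 0.08 and 0.09. For Fgf21 they were Ppbp, 2010003K11Rik and Ncaph, between 0.29 and 0.38, and for Pdk4 1700048O20Rik, Dnase1 and Gm5616, between 0.39 and 0.56. The RMS sizes of the Fgf21, Pdk4, Ppara, Rxra and Vnn3 profiles were 0.94, 1.11, 0.33, 0.23 and 0.28. For Ppara they were L3mbtl2, Zcwpw1 and Rgmb, all at 0.14. For Rxra they were Retreg2, Rwdd4a and Tmem63a, for Ppargc1a Mta1, Timm44 and Zfp326, and for Creb3l3 Gkap1, Ascc2 and Vav2, all at or below 0.08. None of the 8 lists of nearest genes held a gene named for another of the 8.

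Markers of other cell types were read for each group. Of 33 tested marker genes in 10 lists edgeR called 0, with 9 at an unadjusted p under 0.05, close to the 26.3% of all tested genes, and DESeq2 called 7. The 5 cholangiocyte markers summed to between 29.7 and 37.8 CPM in WT and to between 46.2 and 68.0 CPM in TET1 KO and did not overlap. Of these 5 genes, 4 had an unadjusted p under 0.05 and DESeq2 called 3. Spp1 made up most of the cholangiocyte sum, with 19.8 to 29.1 CPM in WT and 30.7 to 43.7 CPM in TET1 KO. Krt19, Krt7 and Epcam were at 6.68, 2.69 and 4.87 CPM in TET1 KO replicate 4. In every other liver each of them was at or below 1.69 CPM. Sums of the Kupffer cell, stellate cell and T and NK cell markers overlapped. Of the 6 stellate cell markers, however, Col1a1 (log2 fold change -0.96, SE 0.29) and Col3a1 (-0.99, SE 0.30) were called lower by DESeq2 and not by edgeR, and so was the endothelial marker Lyve1 (-1.08, SE 0.30). The 5 endothelial markers summed to between 126 and 128 CPM in WT and to between 106 and 124 CPM in TET1 KO. The 5 adipocyte markers summed to 19.4 CPM in TET1 KO replicate 2 and to between 0.278 and 3.25 CPM in the other livers. Skeletal muscle and pancreas markers summed to 0.845 CPM or less in every liver. The pancreas sums were highest in TET1 KO replicate 2 (0.845 CPM) and WT replicate 2 (0.663 CPM). The intestine list was carried by Fabp2 alone, with Alpi, Muc2 and Cdx1 at the floor of 3 counts. The part of these differences in the levels of the 8 genes was not tested.

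The estimates of the 8 genes were recomputed under 14 alternatives. Vnn1, Vnn3, Fgf21, Pdk4, Ppargc1a and Creb3l3 kept their sign under each alternative that gave a value, while Ppara kept it under 11 of 14 and Rxra under 10 of 14. Pdk4 had no value at a minimum of 10 counts in every library, since 1 liver had 8 counts.

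**Figure D4:**
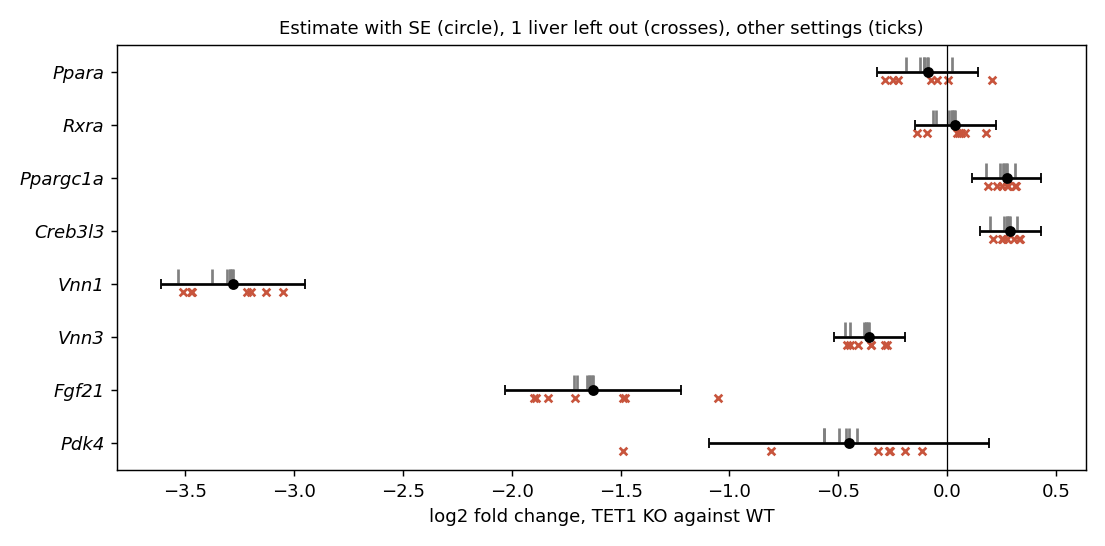
Log2 fold change of TET1 KO against WT (horizontal axis) for the 8 genes. Circles with bars are the estimate and its SE, crosses leave out 1 liver each, and ticks are the other settings. Ppara and Rxra fall on both sides of 0, and Pdk4 moves from -0.45 to -1.49 when TET1 KO replicate 2 is left out.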

How the data were processed

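Poly(A) or ribosomal RNA-depleted stranded libraries of 7 livers were sequenced. Per the labels, reads were trimmed with Trimmomatic 0.36, aligned with GSNAP to GRCm38 and counted with featureCounts 1.5.3, and the authors deposited raw counts per gene, which were not normalized. The settings of the counting are not given in the sources used here. Tables were joined by Ensembl identifier, and 5 repeated entries were left out (51426 genes of 51431 entries).

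The test was edgeR 4.0.16 in R 4.3.3 (filterByExpr, TMM, glmQLFit and glmQLFTest, no covariates, Benjamini-Hochberg adjustment over 14754 genes). DESeq2 1.42.0 was the alternative test, and the code was tested on simulated data. SEs were obtained by dividing each fold change (log2) by the root of its F value. Log2 CPM used a prior count of 2. The 8 genes, the lists and the tests were chosen with earlier results of these data known. Genes named are the 8, the called genes of each list or otherwise its 2 genes of smallest p, the 3 nearest profiles of each, the tested genes within 500 kb of Vnn1, and Tet1. 1 gene that this rule names is not reported here. Apoa1, Klb, Ppargc1b, Crebbp, Fbp1 and the marker genes (6 of 7 for hepatocytes matched a symbol) fall outside this rule and were named after their values were seen. Coordinates and promoters are from RefSeq GRCm38.p6, matched by symbol. Depth lay between 15005277 and 22746138 counts. No pair of libraries of a genotype agreed within sampling noise (lowest chi-square per degree of freedom, 26.4). The labels do not say more than that replicates are separate samples, so p-values measure the spread between these samples. Figures were drawn with matplotlib 3.10.9.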

Additional observations from a re-analysis of the deposited data

Results flagged for a closer look

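Among the 42 values examined over the 4 TET1 KO livers, 3 had 1 liver far from the others, beyond Dixon's critical value, which chance passes in about 1 of 20 groups. Rxra was flagged with a gap of 0.911 of the range, since TET1 KO replicate 4 had 351 CPM and the other 3 livers between 252 and 261 CPM. Acot3 had a gap of 0.876, with TET1 KO replicate 4 at 7.33 CPM and the others between 2.66 and 3.24 CPM. Cpt1b had a gap of 0.832, with TET1 KO replicate 4 at 2.69 CPM and the others between 4.32 and 4.65 CPM.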

How the results depend on the processing

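The 8 genes gave 111 log2 fold changes over the alternatives, and each moved by less than 1 SD of the livers. The sign changed for Ppara and Rxra alone. The counts of called genes moved more, and the cause was not tested. For all genes, DESeq2 called 685 higher and 710 lower, no filter on low counts 245 and 347, and library size only 312 lower. Leaving out 1 liver gave 16 to 427 higher and 21 to 464 lower genes, with the fewest without WT replicate 2 and the most without TET1 KO replicate 4. For the further PPARα targets, DESeq2 called 14 lower and 4 higher, no filter 10 lower, robust dispersions 3 lower and library size only 1 higher, and leaving out 1 liver gave 2 to 9 lower and 0 to 3 higher. For the receptors and coregulators DESeq2 called 3, and leaving out 1 liver gave 0 to 3.

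With the replicate number as a block, 671 genes were higher and 656 lower, 13 further targets were lower and 3 coregulators were called. The numbers were not shown to pair the livers, since the correlations of same-numbered deviations were 0.209, -0.123 and -0.0964 and 2 of 6 libraries correlated best with their own number. With a prior count of 0.5, 21 of the 24 nearest genes were the same. Scaling by library size only gave within-genotype SDs of log2 CPM between 0.15 for Ppargc1a and 1.22 for Pdk4. At these depths the least expressed of the 8 genes, Pdk4 and Fgf21, rested on as few as 8 and 15 counts in a liver.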
